A study of Mus musculus with 8 samples.

Results

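The IL-1 family, its receptors and the inflammasome were followed across 4 groups of mouse lungs through 10 genes: the ligands Il1a, Il1b, Il18 and Il33, the receptor antagonist Il1rn, the receptors Il1r1 and Il1r2, the sensor Nlrp3, and the caspases Casp1 and Casp4. A gene was taken where a probe set of the array was annotated to that symbol alone. All 10 were found, each on 1 probe set, out of 18820 genes measured in this way. The study examined the NF-kappaB subunit p52, expressed in airway epithelium, in lung carcinogenesis. Lipopolysaccharide (LPS), a bacterial cell wall product, was given in separate work and entered the study's model as a second factor beside p52. CCSP-p52 mice make FLAG-tagged p52 from a doxycycline (dox)-inducible transgene that is restricted to epithelial cells expressing Clara cell secretory protein (CCSP), and come from founder lines on the FVB background. WT mice were littermates without the transgene, of matched age and sex. Every mouse, WT mice included, drank 2 g/L dox with 2% sucrose for 1 week. The groups were WT dox, CCSP-p52 dox, WT LPS and CCSP-p52 LPS, and the LPS groups had received intratracheal LPS 48 hours before harvest. Mice were 8 to 12 weeks old. The groups without LPS had dox alone, so the instillation and LPS itself cannot be told apart. Each of the 8 arrays held whole-lung RNA pooled from 3 mice, with 2 pools a group, and the number of arrays limits the precision of every value below.

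IL-1 alpha and IL-1 beta signal through the receptor encoded by Il1r1, which recruits the adaptor MyD88 and activates NF-kappaB. The antagonist encoded by Il1rn occupies that receptor without signalling, and the receptor encoded by Il1r2 is a decoy that binds IL-1 but cannot signal. IL-1 beta and IL-18 are made as inactive precursors that caspase-1 cleaves inside inflammasomes, complexes that sensors such as NLRP3 nucleate. Caspase-4, also called caspase-11 in mice, is activated by LPS inside the cell, and IL-33 is an alarmin stored in the nuclei of lung epithelial and stromal cells.

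Promoter sequence is shown for 4 of the 10 members, all of which rose with LPS, to place the motifs named below next to the values. The 4 are examples: Casp4 and Nlrp3 are among the 3 members with a kappaB match. Il1rn and Il1r2 rose more than these, had no such match and are not shown. The sequences are from RefSeq on GRCm38.p6, the C57BL/6J reference and not the FVB strain of these mice, and each is the 250 bases before an annotated start, read 5′ to 3′ on the strand of the gene. Capitals mark matches to a kappaB consensus, to TGANTCA (the AP-1 site, a palindrome that is counted as the same site on both strands) or to TATAAA, each searched on both strands. Il1a lies at chr2:129309973-129310222 and Il1b at chr2:129371140-129371389, both on the minus strand. Casp4 lies at chr9:5308599-5308848 and Nlrp3 at chr11:59541319-59541568, both on the plus strand.
Il1a: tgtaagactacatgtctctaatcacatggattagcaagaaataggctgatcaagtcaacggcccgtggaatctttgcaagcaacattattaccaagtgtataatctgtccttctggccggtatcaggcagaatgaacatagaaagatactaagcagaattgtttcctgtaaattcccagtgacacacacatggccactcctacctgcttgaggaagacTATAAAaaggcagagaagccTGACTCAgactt
Il1b: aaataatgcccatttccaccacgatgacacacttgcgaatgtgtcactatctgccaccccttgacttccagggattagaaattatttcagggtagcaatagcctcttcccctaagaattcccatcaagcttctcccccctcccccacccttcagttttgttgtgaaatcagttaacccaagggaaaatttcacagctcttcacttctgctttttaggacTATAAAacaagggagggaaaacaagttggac
Casp4: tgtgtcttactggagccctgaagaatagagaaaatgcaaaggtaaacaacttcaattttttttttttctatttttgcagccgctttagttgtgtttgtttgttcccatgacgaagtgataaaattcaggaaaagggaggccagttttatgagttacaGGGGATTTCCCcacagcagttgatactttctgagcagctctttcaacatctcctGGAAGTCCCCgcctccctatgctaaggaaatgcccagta
Nlrp3: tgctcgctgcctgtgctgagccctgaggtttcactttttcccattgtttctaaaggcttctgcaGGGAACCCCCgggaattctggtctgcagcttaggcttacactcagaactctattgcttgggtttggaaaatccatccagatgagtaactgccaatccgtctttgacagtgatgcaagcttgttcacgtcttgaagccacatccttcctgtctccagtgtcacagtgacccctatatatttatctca

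In Il1a the TATAAA began 32 bases upstream of the start and TGACTCA began 12 bases upstream. In Il1b the TATAAA began 31 bases upstream. The Casp4 sequence held a kappaB match that began 93 bases upstream, where overlapping matches were found on both strands, and another on the opposite strand that began 39 bases upstream. The Nlrp3 sequence held 1 match, also read on both strands, that began 186 bases upstream. The 10 members had 16 annotated windows of 300 bases, which reach 50 bases past the start. The kappaB consensus was found in 4 of the 16, against 8.46% of all 32851 windows. Those 4 were 2 overlapping windows of Casp4, which hold the same matches, and 1 each of Il1r1 and Nlrp3, whose other annotated windows held none. The Nlrp3 window printed is the one with the match. TGANTCA was found in 2 (Il1a and Il1rn; 7.81% of all windows) and TATAAA in 6, which belonged to Il1a, Il1b, Il1rn, Il18 and Il33 (13.6% of all windows). These matches describe letters in the reference and not binding in these lungs.

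Some arrays stood apart before any comparison. Summed levels of 9 squamous epithelium markers were 14.1 on the log2 scale in WT LPS pool 2 and 9.58 to 10.01 on the other 7 arrays, and those of 5 striated muscle markers were 13.3 against 9.87 to 10.9. Nfkb2, the gene that encodes p52, read 9.51 and 9.58 in WT dox and 10.20 and 10.33 in CCSP-p52 dox. It read 10.83 and 10.56 in WT LPS and 11.28 and 10.53 in CCSP-p52 LPS, so that the second CCSP-p52 LPS pool did not exceed the WT LPS pools. Some cell markers shifted with LPS. At an adjusted p under 0.05, 13.5% of all genes were called higher and 20.8% lower. Of 10 neutrophil genes 9 were measured, and all 9 were higher with LPS; their summed level was 10.5 to 11.0 without LPS and 13.9 to 14.5 with it. Of 8 recruited monocyte and macrophage genes 7 were measured and 6 were higher, with summed levels of 10.5 to 10.7 and 12.5 to 13.6. Of the 6 alveolar type I genes 5 were lower with LPS, as were 2 of 7 alveolar type II genes and 2 of 4 club cell genes. For alveolar type II the count was near the share of all genes. Of 8 alveolar macrophage genes 7 were measured: Chil3 and Marco were higher, Car4 and Fabp1 were lower, and the median logFC was -0.04. Their summed level, in which Car4 was the largest part on every array, was 12.72 to 12.87 without LPS and 12.37 to 12.85 with it. Whole lung holds all of these cells, more cells of a type and more RNA per cell cannot be told apart, and the part of the marker shifts in the results below was not tested.

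All 10 members were higher with LPS. Il1a, Il1b, Il1rn and Il1r2 rose the most, by 14 to 22 times, followed by Nlrp3 and the caspases, while Il1r1, Il18 and Il33 rose by under 2 times. The test was limma on the 8 arrays with genotype as a covariate, and a gene was called at an adjusted p under 0.05. The members' median logFC was 2.82 against 0.0046 over all genes. Genes called higher made up 13.5% of the 18820 tested, and genes called lower 20.8%. For each member the lowest of the 4 LPS arrays lay above the highest of the 4 arrays without LPS, an order that 15.1% of all genes showed. All 10 were also called without any 1 of the 8 arrays, WT LPS pool 2 included.

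**Figure D1:**
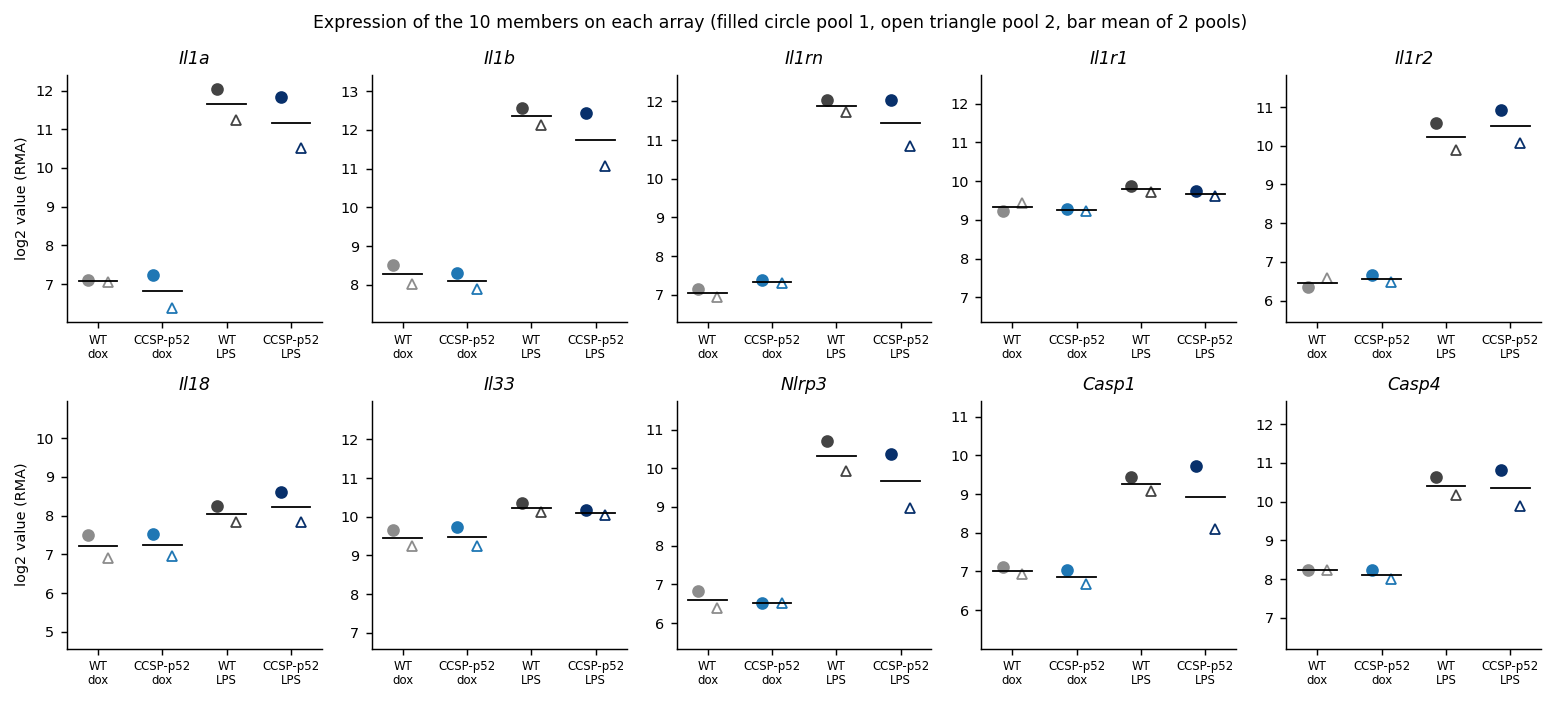
The log2 value (RMA) of each member on each of the 8 arrays, by group. Circles are pool 1, triangles pool 2 and bars the mean of the 2 pools, and each panel spans the same number of log2 units around its own middle. The LPS arrays sit above the others in all 10 panels, and the triangle of each LPS group sits below its circle.

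Among the ligands, Il1a, released by damaged and activated cells, read 7.11 and 7.05 in WT dox, 7.23 and 6.39 in CCSP-p52 dox, 12.04 and 11.24 in WT LPS and 11.83 and 10.50 in CCSP-p52 LPS. The LPS arrays lay about 3 or more log2 units above the others, and the second CCSP-p52 LPS pool was the lowest of them. The logFC with LPS was 4.46 ± 0.32 (SE), or 21.99-fold (95% confidence interval 13.3 to 36.3, limma adjusted p = 0.00011). Il1b, the ligand that caspase-1 matures, read 8.52 and 8.02 in WT dox, 8.31 and 7.89 in CCSP-p52 dox, 12.57 and 12.14 in WT LPS and 12.43 and 11.06 in CCSP-p52 LPS. Here too the second CCSP-p52 LPS pool was the lowest of the 4 LPS arrays. Its logFC was 3.86 ± 0.29, or 14.5-fold (limma adjusted p = 0.000134).

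Il18, whose protein drives interferon gamma production, changed less. It read 7.51 and 6.92 in WT dox, 7.53 and 6.96 in CCSP-p52 dox, 8.24 and 7.84 in WT LPS and 8.62 and 7.84 in CCSP-p52 LPS. The lower LPS pools were close to the higher pools without LPS, and the groups did not overlap. The logFC was 0.91 ± 0.22 (1.87-fold, limma adjusted p = 0.0143). Il33, the alarmin, read 9.65 and 9.24 in WT dox, 9.73 and 9.24 in CCSP-p52 dox, 10.35 and 10.12 in WT LPS and 10.18 and 10.04 in CCSP-p52 LPS. Its logFC was 0.71 ± 0.14 (1.63-fold, limma adjusted p = 0.0058).

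The antagonist Il1rn rose as far as the agonists. It read 7.15 and 6.95 in WT dox, 7.38 and 7.31 in CCSP-p52 dox, 12.04 and 11.72 in WT LPS and 12.03 and 10.85 in CCSP-p52 LPS. The logFC was 4.47 ± 0.26, or 22.1-fold (limma adjusted p = 6.14e-05).

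The receptors moved unequally. The signalling receptor Il1r1 read 9.23 and 9.44 in WT dox, 9.29 and 9.22 in CCSP-p52 dox, 9.89 and 9.72 in WT LPS and 9.74 and 9.61 in CCSP-p52 LPS. The smallest change of the 10 was this one, with a logFC of 0.44 ± 0.08 (1.36-fold, limma adjusted p = 0.0039). The decoy Il1r2 read 6.35 and 6.57 in WT dox, 6.66 and 6.47 in CCSP-p52 dox, 10.59 and 9.88 in WT LPS and 10.93 and 10.08 in CCSP-p52 LPS. It was the only member other than Il18 in which a CCSP-p52 LPS pool held the highest value and the group mean lay above that of WT LPS. Its logFC was 3.85 ± 0.21, or 14.5-fold (limma adjusted p = 4.61e-05).

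Nlrp3, the sensor, read 6.82 and 6.38 in WT dox, 6.51 and 6.51 in CCSP-p52 dox, 10.70 and 9.93 in WT LPS and 10.37 and 8.98 in CCSP-p52 LPS. Its logFC was 3.44 ± 0.31, or 10.8-fold (limma adjusted p = 0.000252). The spread between the LPS pools was wide, and the second CCSP-p52 LPS pool was again the lowest. Casp1, which cleaves the IL-1 beta and IL-18 precursors, read 7.11 and 6.93 in WT dox, 7.04 and 6.68 in CCSP-p52 dox, 9.45 and 9.07 in WT LPS and 9.74 and 8.09 in CCSP-p52 LPS. The CCSP-p52 LPS group held both the highest and the lowest LPS value of this gene, and the logFC was 2.15 ± 0.31 (4.43-fold, limma adjusted p = 0.0017). Casp4 read 8.24 on both WT dox arrays, 8.22 and 8.00 in CCSP-p52 dox, 10.64 and 10.17 in WT LPS and 10.81 and 9.89 in CCSP-p52 LPS. Its logFC was 2.20 ± 0.19 (4.60-fold, limma adjusted p = 0.000218).

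Within each genotype the LPS effect was positive for all 10 members, against 51.8% of all genes in WT and 45.1% in CCSP-p52 mice, from a limma fit of the 4 groups. In WT mice 9 members were called at an adjusted p under 0.05, against 8.07% of all genes called higher. Il18 was the exception, with a logFC of 0.83 ± 0.33 (adjusted p = 0.12). In CCSP-p52 mice 7 were called, against 4.31% of all genes. The others were Il1r1 with 0.42 ± 0.12 (adjusted p = 0.069), Il18 with 0.99 ± 0.33 (adjusted p = 0.107) and Il33 with 0.62 ± 0.21 (adjusted p = 0.101). All 10 had an unadjusted p under 0.05 in both genotypes, against 15.8% of all genes in WT mice and 12.2% in CCSP-p52 mice in that direction. With the pool number as a fixed block, the counts were 10 in WT mice and 9 in CCSP-p52 mice: Il18 was then called in both (adjusted p = 0.0062 and 0.0056) and Il33 in CCSP-p52 mice (adjusted p = 0.021).

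These within-genotype counts depended on single arrays. In WT mice 5 members were called without WT dox pool 1 and 4 without WT dox pool 2, and the count was 6 without either WT LPS pool. In CCSP-p52 mice the count was 3 when the first CCSP-p52 dox pool was left out. When the second was left out, none was called at an adjusted p under 0.05 by limma, while 8 had an unadjusted p under 0.05.

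**Figure D2:**
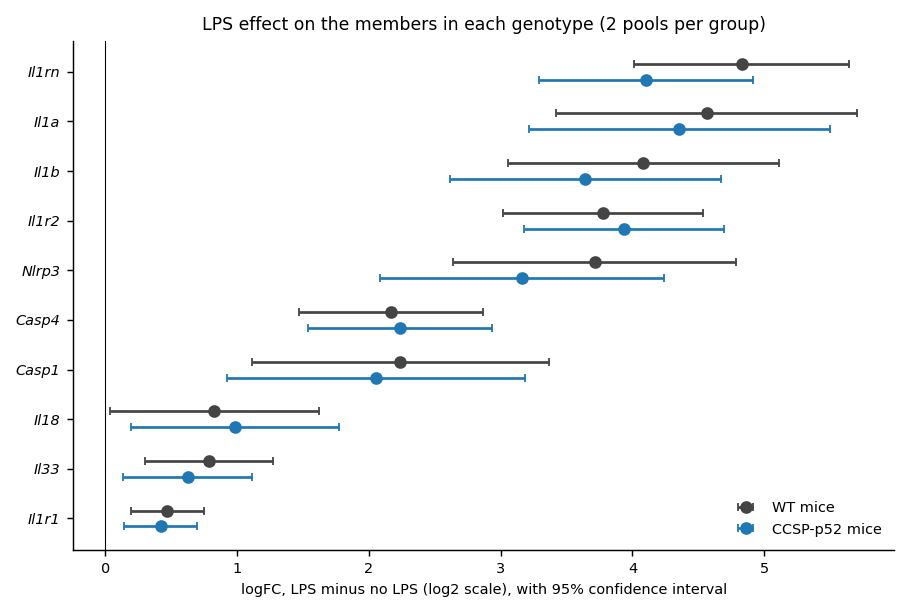
The logFC of each member with LPS (log2 scale) in WT mice (grey) and CCSP-p52 mice (blue), with 95% confidence intervals from the fit of the 4 groups. The members are ordered by the effect over both genotypes, from Il1rn (4.47) down to Il1r1 (0.44), and the intervals of the 2 genotypes overlap for every member.

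The p52 transgene changed none of the 10 members at the cut-off used here, a logFC of at least 0.41 in size with an unadjusted p of at most 0.05. The size is that of the study, which applied it to increases. The study also drew on the p-value of the p52 factor but names no limit for that selection. The limit on p and the use in both directions were set here. Over both LPS states, the cut-off was reached by 0 of 10 members; among all genes 0.228% were called higher and 0.0425% lower. In lungs without LPS the count was also 0 of 10, where 0.569% of all genes were called higher and 0.165% lower. The logFC of the members there ran from -0.27 ± 0.48 for Il1a to 0.29 ± 0.34 for Il1rn. By limma 0 members had an unadjusted p under 0.05 in either comparison. Over both LPS states that held for 1.42% of all genes as higher and 0.893% as lower, and without LPS for 1.22% and 0.51%. For Il1rn both CCSP-p52 dox pools, at 7.38 and 7.31, lay above both WT dox pools, at 7.15 and 6.95, an order that 16.5% of all genes showed. For Casp4 both lay below, which 16.2% of all genes showed.

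With LPS, 8 of the 10 members had a lower mean in CCSP-p52 than in WT lungs, against 49.1% of all genes, and none reached the cut-off, against 1.09% of all genes called lower and 0.972% called higher. No member had an unadjusted p under 0.05 by limma, against 3.1% of all genes as higher and 3.77% as lower. The logFC was -0.47 ± 0.48 for Il1a, -0.61 ± 0.43 for Il1b (95% confidence interval -1.64 to 0.42, limma adjusted p = 0.779) and -0.44 ± 0.34 for Il1rn. It was -0.64 ± 0.45 for Nlrp3, -0.35 ± 0.48 for Casp1 and -0.06 ± 0.29 for Casp4. The receptors gave -0.13 ± 0.12 for Il1r1 and 0.27 ± 0.32 for Il1r2, and the remaining ligands 0.19 ± 0.33 for Il18 and -0.13 ± 0.21 for Il33. For all 10 members the values of the 2 genotypes overlapped with LPS, whereas 15.3% of all genes were higher and 16% lower in CCSP-p52 lungs without overlap. For 9 members, all but Il1r1, the 95% confidence interval reached past 0.41 in size, so that a difference of that size was not detectable with 2 pools a group. With the pool number as a fixed block, Il1b alone reached the cut-off (limma adjusted p = 0.56).

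Whether p52 altered the response to LPS was tested as the difference between the p52 effects with and without LPS. By limma, 0 members and 0 of all 18820 genes passed an adjusted p under 0.05. At an unadjusted p under 0.05 the count was 0 of 10 members, against 1.83% of all genes with a higher and 3.19% with a lower p52 effect in the LPS state. Without CCSP-p52 LPS pool 1, all 10 differences were negative and 4 members (Il1b, Il1rn, Nlrp3 and Casp1) had an unadjusted p under 0.05, against 8.19% of all genes with a lower effect in that fit; by limma 0 had an adjusted p under 0.05. The widest difference over all 8 arrays was -0.73 ± 0.49 for Il1rn (95% confidence interval -1.88 to 0.42).

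The p52 values with LPS depended on which CCSP-p52 LPS pool was used. Pool 2 lay below pool 1 for all 10 members in CCSP-p52 LPS, against 50.7% of all genes, and the gap ran from 0.14 for Il1r1 to 1.65 for Casp1, with a median of 1.04. Pool 2 also lay below pool 1 for all 10 members in WT LPS, against 57% of all genes, with gaps of 0.16 to 0.80 and a median of 0.41. Without LPS pool 2 was the lower for 7 members in WT dox and 9 in CCSP-p52 dox, against 54.6% and 46.6% of all genes. In the 2 pools of CCSP-p52 LPS the summed monocyte and macrophage markers read 13.6 and 12.5, the neutrophil markers 14.4 and 13.9, the club cell markers 13.82 and 14.67 and the alveolar type II markers 15.37 and 16.02. The alveolar type I markers read 14.06 and 14.56, the alveolar macrophage markers 12.37 and 12.85 and the squamous markers 10.01 and 9.80. The summed neutrophil and recruited monocyte markers were thus lower in the pool with the lower members. Cd14 (12.35 and 11.23) and F10 (11.62 and 9.96) were the largest parts of the monocyte sum in these pools. Cx3cr1 of the monocyte list (8.37 and 8.90) and Retnlg of the neutrophil list (11.04 and 11.19) went the other way. The summed club cell, alveolar type I, alveolar type II and alveolar macrophage markers were higher in pool 2. Among the alveolar macrophage genes, Car4 (11.27 and 12.27), Siglecf, Krt79, Fabp1 and Pparg were higher in pool 2. Marco (7.85 and 7.11) and Chil3 (10.78 and 10.30) were lower in it. Car4 was the largest part of the alveolar macrophage sum, so the higher sum does not speak for the list as a whole. The part of these markers in the gap was not tested.

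Between pools of the same number, 6 members were lower in CCSP-p52 LPS than in WT LPS in both pairs, against 28.2% of all genes: Il1a, Il1b, Il1rn, Il1r1, Il33 and Nlrp3. For Il1b the differences were -0.14 and -1.08, and for Nlrp3 -0.33 and -0.96. Il1rn differed by -0.0041 in the first pair and -0.87 in the second. Il1r2 was higher in both pairs (0.34 and 0.19), against 26.5% of all genes. The sign differed between the pairs for Il18, Casp1 and Casp4.

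Without CCSP-p52 LPS pool 1, 6 members were lower in CCSP-p52 than in WT lungs at the cut-off, against 6.41% of all genes in that fit: Nlrp3 with a logFC of -1.34, Il1b with -1.30, Casp1 with -1.17, Il1a with -1.13, Il1rn with -1.02 and Casp4 with -0.51. Of these, Il1rn alone had an adjusted p under 0.05 by limma (0.049). Without pool 2 the same 6 genes had logFC values of 0.06 to 0.48 and none was called, and Il1r2 reached the cut-off instead with 0.69. Each of these fits rests on a lone CCSP-p52 LPS pool that is assumed to vary as the other groups do. Without WT LPS pool 2, the array with the squamous and muscle markers, no member was called and all 10 differences were negative.

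**Figure D3:**
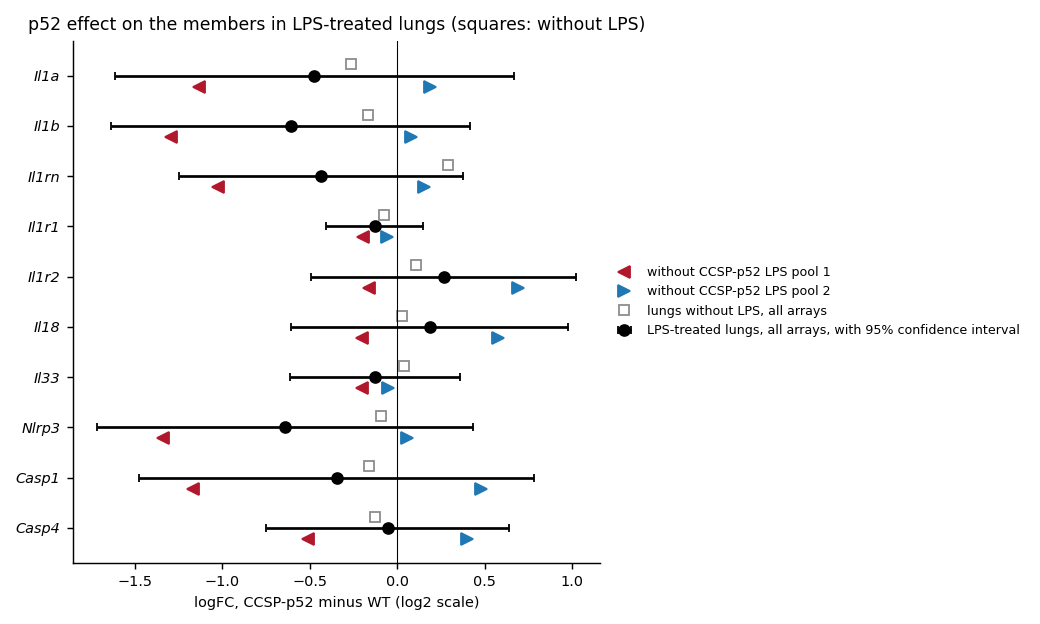
The logFC of each member in CCSP-p52 minus WT lungs (log2 scale) with LPS, as black circles with 95% confidence intervals, and without LPS as open squares. Red and blue triangles give the LPS value without CCSP-p52 LPS pool 1 or pool 2: every interval crosses 0, and for Il1b the value moves from -1.30 to 0.08 with the pool left out.

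Inhibitors and decoys were also compared with their agonists or receptors on the same array. The pairs were chosen after the values had been seen, so they are described without a test, and since probe sets differ in brightness the change is read and not the level. Il1rn minus the mean of Il1a and Il1b differed between the CCSP-p52 LPS pools by 0.17, where Il1b itself differed by 1.37. With LPS the antagonist gained 0.30 on the agonists, with a standard deviation between pools of 0.23, and the values overlapped: -0.27 to 0.07 on the 4 LPS arrays and -0.66 to 0.16 on the 4 others. In WT mice the values rose from -0.66 and -0.59 to -0.27 and 0.03, a gain of 0.51 without overlap. In CCSP-p52 mice they went from -0.39 and 0.16 to -0.10 and 0.07, a gain of 0.10 with overlap. Without LPS the mean was 0.51 higher in CCSP-p52 than in WT mice. Il1r2 minus Il1r1 rose by 3.41 (standard deviation 0.32), from between -2.88 and -2.62 without LPS to between 0.16 and 1.19 with it, and differed between the CCSP-p52 LPS pools by 0.71. The decoy therefore gained on the signalling receptor on every LPS array. Il18bp, which encodes a soluble protein that neutralises IL-18, gained 0.80 on Il18 (standard deviation 0.30), from between 1.78 and 2.48 to between 2.77 and 3.19.

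**Figure D4:**
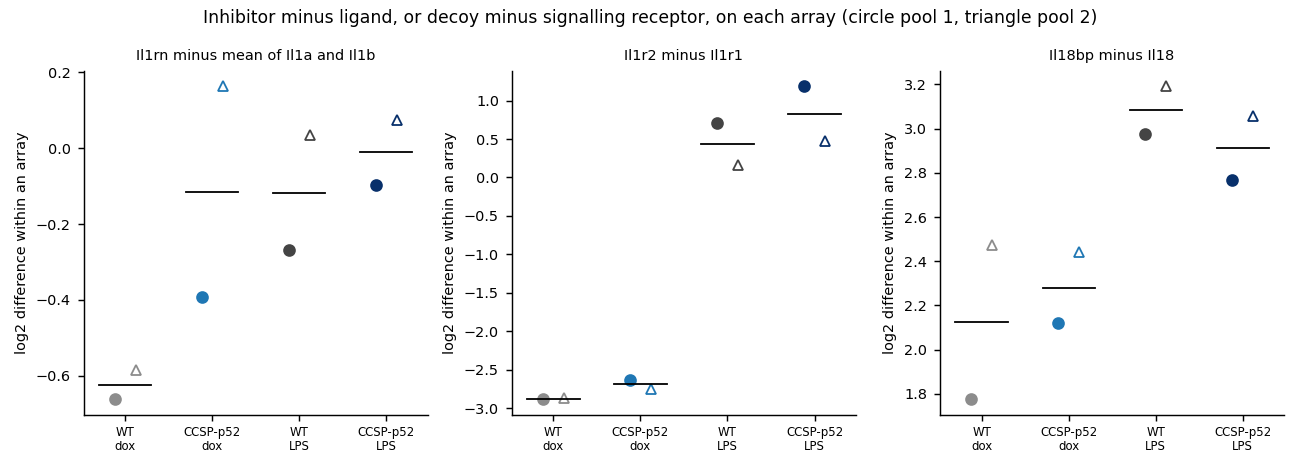
The log2 difference within each array between Il1rn and the mean of Il1a and Il1b, between Il1r2 and Il1r1, and between Il18bp and Il18, by group (circle pool 1, triangle pool 2, bar mean of the pools). The LPS arrays lie above the others for the second and the third pair, by 3.41 and 0.80 in the mean, and overlap with them for the first.

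Other genes of the pathway were counted from fixed lists, with LPS over both genotypes and at the same adjusted p. By that rule 13.5% of all 18820 genes were called higher and 20.8% lower. Of 6 other IL-1 family ligands and binding proteins, 3 were higher and none lower, with a median logFC of 1.07. Il36g, an epithelial and myeloid cytokine of the IL-36 branch, had the largest rise of any gene in these lists, 4.93 ± 0.38 (30.5-fold, limma adjusted p = 0.000143). It read 6.73 and 6.01 in WT dox, 6.60 and 6.72 in CCSP-p52 dox, 12.02 and 11.58 in WT LPS and 11.94 and 10.25 in CCSP-p52 LPS. Il36a rose by 1.84 ± 0.32 and Il18bp by 1.70 ± 0.12, while the IL-36 receptor antagonist Il36rn gave 0.44 ± 0.15 and was not called (limma adjusted p = 0.058). Without LPS, Il36a read 5.30 to 5.78, below the 25th percentile of every array (6.02 to 6.10). It was thus not shown to be above background there. Il36rn read 7.30 in WT LPS pool 2, the array with the squamous markers, and 6.56 to 6.78 on the other LPS arrays. Without that array its logFC was 0.27.

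Of 8 other receptors 7 were measured, and 1 was called higher and 1 lower, near the shares of all genes (13.5% and 20.8%). Il18rap, the accessory chain of the IL-18 receptor, rose by 1.66 ± 0.17, and Sigirr, an inhibitory receptor of the family, fell by 0.41 on the log2 scale (SE 0.09). The list's median was 0.21. Of 16 inflammasome sensors and adaptors 14 were measured, 8 were higher and 2 lower, with a median of 0.81. The share called lower in this list did not exceed that of all genes. The examples with the smallest p were Naip2 (2.26 ± 0.28), a sensor of bacterial secretion systems, Mefv (2.48 ± 0.38), which encodes pyrin, Pycard (1.39 ± 0.22), the adaptor that links sensors to caspase-1, and Naip5 (1.07 ± 0.19). The 2 lower genes, named here after their values were seen, were Txnip (-0.54 ± 0.13) and P2rx7 (-0.38 ± 0.07), the ATP-gated channel upstream of NLRP3. Naip genes are close paralogs, and probes may be shared between them.

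Among pyroptosis genes and other inflammatory caspases 6 of 8 were measured, and 4 rose, against 13.5% of all genes called higher. They were Ninj1 (1.84 ± 0.18), which ruptures the membrane of dying cells, the gasdermins Gsdmd (0.80 ± 0.11) and Gsdme (0.64 ± 0.12), and Panx1 (0.47 ± 0.13). With each array left out in turn, Panx1 kept its call in 4 of 8 fits, and its logFC ran from 0.37 to 0.57 over the 8. Of 12 genes of IL-1 receptor signalling 10 were measured and 3 rose, against the same 13.5% of all genes. They were Irak3 (2.19 ± 0.19), an inhibitor of the pathway, Myd88 (1.495 ± 0.14) and Irak2 (1.02 ± 0.23). The median of that list was 0.019, near that of all genes.

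**Figure D5:**
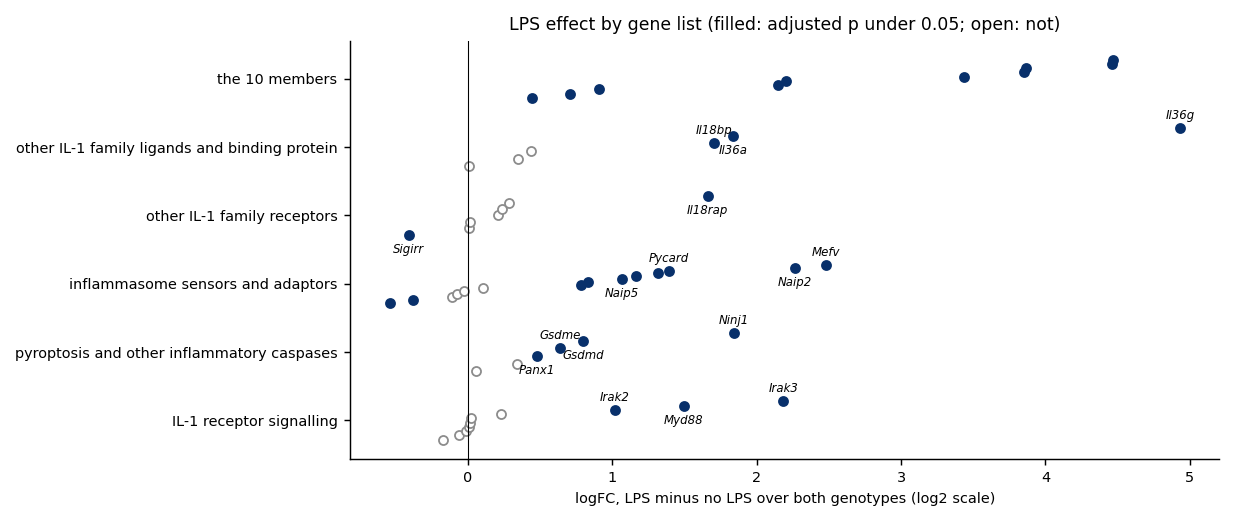
The logFC with LPS over both genotypes (log2 scale) for each measured gene, by list, with filled points for an adjusted p under 0.05 and open points otherwise. All 10 members are filled and to the right of 0, whereas in IL-1 receptor signalling 3 of 10 genes are, and Il36g stands at 4.93.

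Of the 43 genes measured in these lists, the p52 cut-off with LPS was reached by 2, both lower and both named after their values were seen, against 1.09% of all genes called lower and 0.972% called higher. Nlrp1a, an inflammasome sensor, read 5.16 and 5.27 in WT LPS and 4.74 and 4.49 in CCSP-p52 LPS (logFC -0.61 ± 0.12, limma adjusted p = 0.689). Il36a read 8.01 and 7.58 in WT LPS and 7.52 and 6.27 in CCSP-p52 LPS (logFC -0.90 ± 0.38, limma adjusted p = 0.713). Neither passed an adjusted p under 0.05. With each array left out in turn, Nlrp1a reached the cut-off in 8 of 8 fits (logFC -0.73 to -0.48) and Il36a in 1 of 8 (-1.52 to -0.27). The Nlrp1a values lay below the 25th percentile of every array (6.02 to 6.10 over its probe sets), so the gene was not shown to be above background, and Nlrp1a and its paralog Nlrp1b may share probes.

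The genes whose pattern was most like a member's were found from the root mean square difference of log2 values, centred over the 8 arrays. This is a description over arrays that share the same pools. Closest to Il1b were Msr1 (0.10), Cd14 (0.16) and Clec5a (0.20). Closest to Il1rn were Slc7a11 (0.11), Timp1 (0.15) and Nos2 (0.17), and closest to Nlrp3 were Clec5a (0.12), Trem1 (0.15) and Slc2a6 (0.16). Casp4 was closest to Pirb (0.085), Rnf19b (0.088) and Fcgr3 (0.12), and Casp1 to Ebi3 (0.11), Cst7 (0.12) and Tm4sf19 (0.13). Il1a had no gene nearer than Clec4d (0.24), followed by Nos2 (0.26) and Cxcl11 (0.27), and Il1r2 none nearer than Ccl7 (0.21), Cfb (0.27) and Cstdc4 (0.28). For the members with small changes the nearest were Psmd7 (0.062), Piwil2 (0.066) and Dnajc2 (0.068) for Il1r1, Ttc39b (0.11), Klrg1 (0.12) and Trgv1 (0.13) for Il18, and Klrb1f (0.081), Irf9 (0.085) and Mocs1 (0.087) for Il33. Cd14 and Trem1 were also among the monocyte and neutrophil markers, with logFC values of 3.995 and 3.36 with LPS.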

How the data were processed

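Whole-lung RNA was hybridised to Affymetrix Mouse Gene 1.0 ST arrays. The deposited log2 values had been made by the authors with RMA (background correction, quantile normalization and summary by probe set), and limma 3.20.8 is given in the processing notes of the submitters. These values were used as deposited. Probe sets were named from the platform annotation, whose version relative to this array was not settled: of 35556 probe sets, 21218 had 1 symbol, 1881 several and 12457 none. Per gene the probe set with the highest mean was kept, which left 18820 genes.

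Tests used limma 3.58.1 in R 4.3.3 (lmFit, eBayes, Benjamini-Hochberg over all 21218 probe sets with 1 symbol). LPS and p52 effects over both states came from an additive model, effects within a state or genotype and their difference from a model of the 4 groups. LPS effects and the difference were called at an adjusted p under 0.05. Effects of p52 were called at a logFC of 0.41 or more in either direction, the study's size limit for increases. An unadjusted p of at most 0.05 was also required, a limit set here. The fits were tested on simulated data. P-values measure the spread between pools. The members, gene lists and tests were chosen with earlier results of these data known. Named genes were all 10 members, at most 4 genes of each list by the smallest LPS p, and the 3 genes most like each member. Il1rl1, Nlrp12, Naip1, Irak1 and Irak4 were not analysed here.

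Replicate numbers were taken to pair the pools across groups, since pools of the same number departed from the means of their groups together, with correlations over genes of 0.14 to 0.35 in all 6 pairs of groups. Groups came from the labels, which do not say what pools of the same number share, so the pairing rests on these same values. Alternatives covered the probe set rule, filter, normalization, variance model, array weights, replicate blocks, thresholds and leaving out arrays.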

Additional observations from a re-analysis of the deposited data

How the results depend on the processing

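The number of members called higher with LPS over both genotypes was 10 under every alternative but the stricter threshold (adjusted p under 0.01), where it was 9 and Il18 was lost. Within CCSP-p52 mice the count fell from 7 to 4 with those arrays fitted alone and to 4 at the stricter threshold. Within WT mice the stricter threshold lost Casp1, Il1r1 and Il33 (limma adjusted p = 0.021, 0.033 and 0.037). With all probe sets in the fit, 7 members were called in WT mice instead of 9, and 6 in CCSP-p52 mice. With the replicate block (pool number, fixed), p52 with LPS had 1 member at the cut-off instead of 0; other calls it changed stand beside the results. Array weights turned the sign of the p52 effect over both LPS states for Il1a (0.022), Il1rn (0.22) and Il33 (0.16). Without both second LPS pools it turned for Il1rn (0.19), the effect with LPS for Casp1 (0.29) and Casp4 (0.17), and the difference for Il1a (0.055), Il1b (0.028) and Casp1 (0.45). No p52 effect whose sign turned had been called.

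Each array was left out in turn. The count of members called ran from 4 to 9 for LPS in WT mice, from 0 to 9 for LPS in CCSP-p52 mice, from 0 to 1 for p52 over both LPS states (Casp1, without CCSP-p52 LPS pool 1) and from 0 to 6 for p52 with LPS. For the p52 effect over both LPS states, the logFC changed sign over these fits and ran for Il33 from -0.16 to 0.038, Il1rn from -0.24 to 0.24, Il18 from -0.064 to 0.25, Casp1 from -0.56 to 0.094 and Casp4 from -0.28 to 0.085. For p52 without LPS, the logFC changed sign over these fits and ran for Il1b from -0.42 to 0.080, Il1r2 from -0.0058 to 0.22, Nlrp3 from -0.31 to 0.13, Il1r1 from -0.19 to 0.030, Il18 from -0.27 to 0.33, Il33 from -0.21 to 0.29, Il1a from -0.69 to 0.16 and Casp1 from -0.34 to 0.018. For p52 with LPS, the logFC changed sign over these fits and ran for Casp4 from -0.51 to 0.40, Il1r2 from -0.16 to 0.69, Il18 from -0.20 to 0.58, Il1a from -1.13 to 0.19, Il1b from -1.30 to 0.076, Il1rn from -1.02 to 0.15, Nlrp3 from -1.34 to 0.055 and Casp1 from -1.17 to 0.48. For the difference of the p52 effects, the logFC changed sign over these fits and ran for Il1r1 from -0.16 to 0.057, Il18 from -0.23 to 0.55, Il33 from -0.41 to 0.084, Il1a from -0.87 to 0.45, Casp4 from -0.39 to 0.53, Casp1 from -1.01 to 0.64, Il1r2 from -0.27 to 0.59, Il1b from -1.13 to 0.24 and Nlrp3 from -1.25 to 0.15. These sign changes concern p52 effects alone: every LPS effect of a member kept its direction. With 2 pools a group, a lone pool in a group is assumed to vary as the others do.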
